A study of Mus musculus with 12 samples.

Results

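Transcripts of 7 genes that mark and regulate the mouse oocyte were followed through the loss of the mitofusins: the transcription factor genes Figla, Sohlh1, Nobox and Lhx8, the core promoter factor genes Tbpl2 and Taf4b, and the oocyte linker histone gene H1foo. The genes were chosen by symbol, and 6 of the 7 were measured among 11385 genes in 12 libraries. Sohlh1 was not analysed here, because the table of counts held only genes above 1 CPM in at least 3 libraries and gave no row for it. The oocytes came from mice of the C57BL/6J strain that had received no hormone priming, and the 4 groups, with n = 3 libraries each, were Mfn1-/-, Mfn2-/-, Mfn1&2-/- and wild type (WT). All groups were 21 to 23 days old. Each library was made from total RNA of 50 oocytes at the germinal-vesicle (GV) stage, the stage held in meiotic prophase, from which the cumulus cells had been stripped. The labels name no Cre driver. They leave unsaid whether each pool had its own donor mice, so the p-values rest on differences among pools, which may be technical. The study asked about the role of mitofusins, GTPases that fuse the outer membranes of mitochondria, in the development of oocytes.

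Oocytes build their transcriptome during growth, under a small set of germ-cell regulators. FIGLA and SOHLH1 are basic helix-loop-helix (bHLH) proteins that bind E-boxes with a partner, NOBOX and LHX8 are homeodomain proteins, and mice that lack any of the 4 lose their oocytes early. TBPL2 takes the place of the TATA-binding protein in growing oocytes, TAF4B is a germ-cell form of a subunit of the general factor TFIID, and the product of H1foo replaces somatic linker histones on oocyte chromatin.

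Libraries held 11575357 to 16024893 counts, so that 3 counts corresponded to 0.188 to 0.253 CPM (counts scaled to library size and TMM factors). The knockout labels were checked on their own genes. Mfn1 stood at 18.1 ± 0.696 CPM in Mfn1-/- and 20.1 ± 5.87 CPM in Mfn1&2-/-, against 279.7 ± 16.4 CPM in WT, and Mfn2 at 11.2 ± 2.19 CPM in Mfn2-/- and 10.8 ± 1.31 CPM in Mfn1&2-/-, against 76.3 ± 9.75 CPM in WT. A level is given with its SD (n = 3) after ±, and a log2 fold change with an approximate standard error. All 13 oocyte markers were measured, and their summed level was 14056 to 15987 CPM in Mfn1-/-, 16063 to 18203 CPM in Mfn2-/-, 14496 to 16348 CPM in Mfn1&2-/- and 12933 to 15863 CPM in WT. Of 16 granulosa-cell markers 11 were measured, and their sum without Serpine2, a single abundant gene, was 148 to 181 CPM across the knockout libraries and 187 to 523 CPM in WT. WT replicate 3 stood apart: 8 of the 11 granulosa markers had their highest value of all libraries there, and Nobox and Lhx8 had their lowest. In bulk RNA, fewer cells of a type and less RNA per cell cannot be told apart. The part of granulosa transcripts in the results below was not tested, and each member's differences from WT are also given without that library.

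Levels differed widely between the 6 genes. Per kilobase of exon, which allows genes to be compared, H1foo had the highest level of the 6 in every group, at 987 ± 48.3 CPM per kb in Mfn1-/-, 1293 ± 74.1 in Mfn2-/-, 1240.5 ± 62.1 in Mfn1&2-/- and 1090.1 ± 85.2 in WT. It ranked 7th, 5th, 4th and 4th in these groups among 10718 genes with a known length. Nobox followed at 185 ± 15.9 CPM per kb in Mfn1-/-, 188 ± 14.3 in Mfn2-/-, 147 ± 0.932 in Mfn1&2-/- and 153 ± 37.0 in WT, and Lhx8 at 75.5 ± 4.09, 91.9 ± 6.59, 91.4 ± 6.25 and 73.8 ± 9.36 in the same groups. Tbpl2 (11.9 ± 0.943, 13.8 ± 3.10, 17.0 ± 6.54 and 11.6 ± 3.24 CPM per kb) and Taf4b (12.1 ± 2.20, 10.2 ± 1.29, 8.06 ± 0.239 and 9.65 ± 1.66 CPM per kb) were neighbours whose ranges overlapped in Mfn1-/-, Mfn2-/- and WT. In Mfn1&2-/- all 3 Tbpl2 levels, at 13.1 to 24.6 CPM per kb, lay above all 3 Taf4b levels, at 7.81 to 8.29 CPM per kb. Figla was the lowest of the 6, at 4.92 ± 2.76 CPM per kb in Mfn1-/-, 8.03 ± 3.67 in Mfn2-/-, 5.13 ± 0.210 in Mfn1&2-/- and 5.99 ± 1.89 in WT, with a range that overlapped that of Taf4b in Mfn2-/-.

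**Figure D1:**
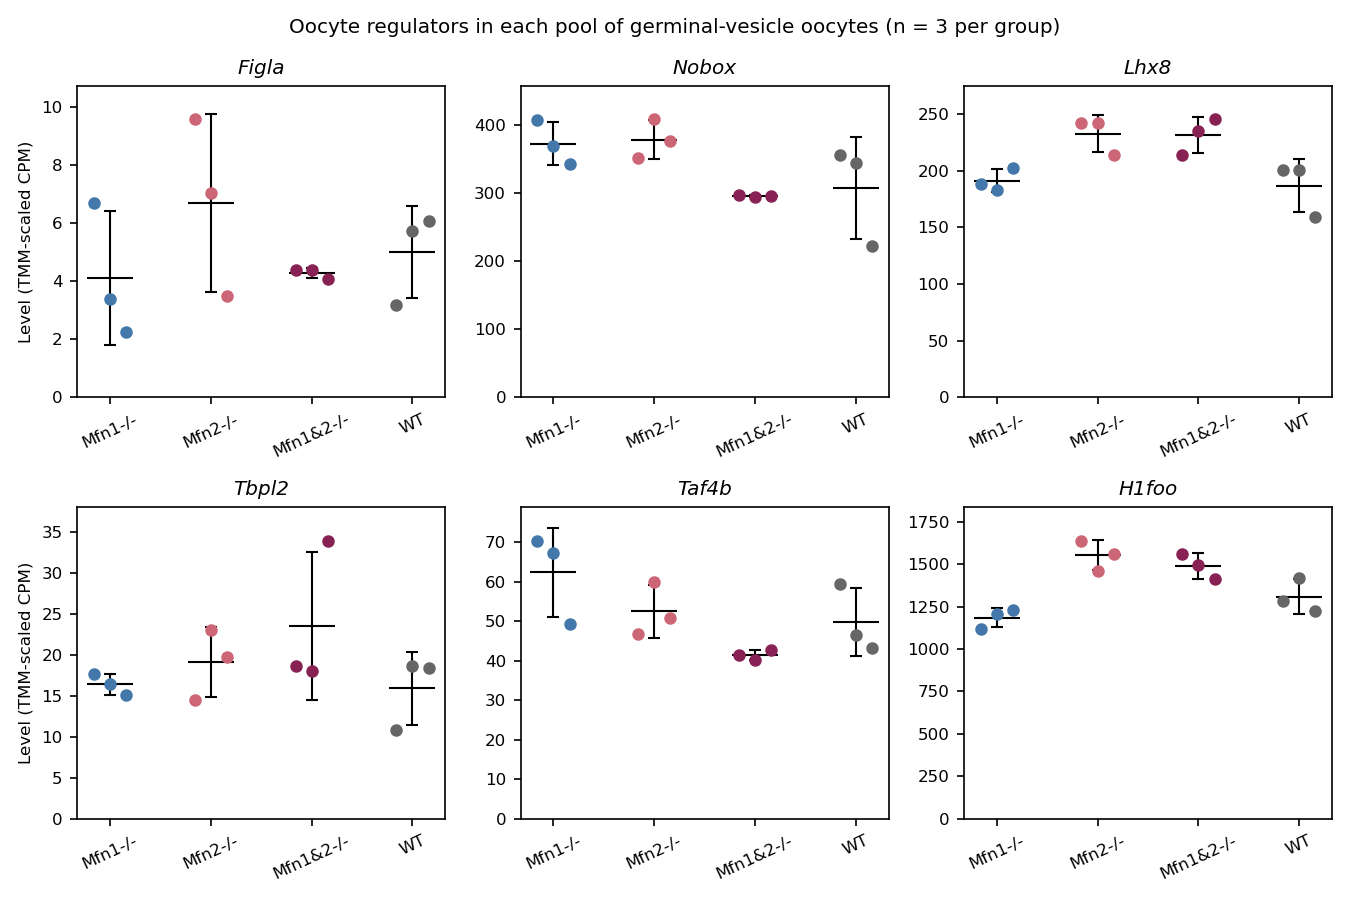
Level of each gene (y axis, CPM with TMM scaling, from 0) in each pool of 50 oocytes; points are libraries, long ticks the mean and bars the SD of the 3 libraries of Mfn1-/-, Mfn2-/-, Mfn1&2-/- and WT. For Lhx8, the 6 libraries without Mfn2 lie at 214 to 245 CPM and the 6 others at 159.5 to 203 CPM.

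Lhx8 and H1foo were the members called higher with loss of Mfn2, and their promoters are shown for that reason. The RefSeq promoters (GRCm38.p6, from 250 bases before to 50 after the annotated start) were searched on both strands for an E-box (CANNTG), the NOBOX element (TAATTG or TAATTA), the LHX8 motif TGATTG and the TATA box TATAAA, and 6 of the 7 genes had an entry. The promoter of H1foo (chr6:115944681-115944980, + strand) held a single E-box at position -66 from the start and a single LHX8 motif at -88, in capitals. The promoter of Lhx8 (chr3:154330511-154330810, - strand) held no match to any of these motifs in this window.
H1foo: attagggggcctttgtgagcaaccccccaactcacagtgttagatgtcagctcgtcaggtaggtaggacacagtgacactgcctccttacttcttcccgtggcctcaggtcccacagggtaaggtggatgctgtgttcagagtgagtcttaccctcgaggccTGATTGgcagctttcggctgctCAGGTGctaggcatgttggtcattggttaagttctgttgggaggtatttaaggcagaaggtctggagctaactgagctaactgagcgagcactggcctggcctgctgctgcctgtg
Lhx8: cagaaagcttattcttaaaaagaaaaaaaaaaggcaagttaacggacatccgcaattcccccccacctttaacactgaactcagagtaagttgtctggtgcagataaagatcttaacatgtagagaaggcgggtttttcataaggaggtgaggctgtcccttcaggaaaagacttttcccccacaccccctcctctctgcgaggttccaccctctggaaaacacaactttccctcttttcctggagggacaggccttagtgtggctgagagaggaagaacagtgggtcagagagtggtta
Of 32851 RefSeq promoters of the same length, 72.3% held an E-box, 14% the LHX8 motif, 12.4% a NOBOX element and 13.6% the TATA box, so a match is common and is only a description. E-boxes numbered 4 in the promoter of Figla, 5 in that of Sohlh1, 2 in that of Nobox and 5 in that of Tbpl2. None of these 4 promoters held any of the other motifs.

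Figla (chromosome 6, 86016171 to 86020996 in GRCm38, GENCODE vM21), whose protein drives the zona pellucida genes, was measured at 6.69, 3.39 and 2.25 CPM in Mfn1-/-, 9.59, 7.06 and 3.48 CPM in Mfn2-/- and 4.38, 4.40 and 4.09 CPM in Mfn1&2-/-, against 3.19, 5.74 and 6.10 CPM in WT. The groups overlapped throughout, and the 12 libraries spanned a 4.26-fold range on 27 to 144 counts each. The log2 fold change against WT was -0.28 ± 0.45 in Mfn1-/-, 0.42 ± 0.45 in Mfn2-/- and -0.22 ± 0.45 in Mfn1&2-/-, none called. Leaving out WT replicate 3 gave -0.12, 0.59 and -0.056. The interval of the difference between Mfn2-/- and WT was -0.45 to 1.30, and the SD within a group reached 56.2% of the mean. The 3 zona pellucida genes, which FIGLA activates, were all measured. Of these, 1 was called in Mfn2-/- against WT, where 11.4% of all genes were: Zp1 rose in Mfn2-/- (0.41 ± 0.13, edgeR quasi-likelihood adjusted p = 0.0468), at 674, 747 and 665 CPM in Mfn2-/- and 577, 583 and 409 CPM in WT, and the call was lost without WT replicate 3. Zp2 and Zp3 were not called in that comparison.

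Nobox (chromosome 6, 43303674 to 43309554), which encodes the homeodomain factor that activates growth-phase genes such as Gdf9 and Bmp15, stood at 406, 368 and 343 CPM in Mfn1-/- and 350.5, 408 and 376 CPM in Mfn2-/-. It stood at 297, 293 and 296 CPM in Mfn1&2-/-, against 356, 344 and 221 CPM in WT. Both single knockouts lay above the double knockout in every library, and the WT libraries overlapped all 3 knockout groups. The log2 fold change was 0.28 ± 0.14 in Mfn1-/-, 0.30 ± 0.14 in Mfn2-/- and -0.06 ± 0.14 in Mfn1&2-/- against WT, and none was called. These values rested on WT replicate 3, the lowest library for Nobox. Without it they were 0.089 ± 0.10, 0.11 ± 0.10 and -0.25 ± 0.10, again none called. Against the single knockouts the double knockout stood at -0.33 ± 0.14 (Mfn1-/-) and -0.36 ± 0.14 (Mfn2-/-; edgeR adjusted p = 0.113). The interaction of the losses, the effect of losing both less the sum of the single effects, was -0.63 ± 0.20 (edgeR adjusted p = 0.0768; called by DESeq2). Without WT replicate 3, Nobox was called lower in Mfn1&2-/- than in each single knockout.

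Lhx8 (chromosome 3, 154306294 to 154330659), a LIM homeobox gene needed for the primordial-to-primary follicle transition, was measured at 188, 183 and 203 CPM in Mfn1-/-, 242, 242 and 214 CPM in Mfn2-/- and 214, 235 and 245 CPM in Mfn1&2-/-, against 201, 200.2 and 159.5 CPM in WT. All 6 libraries without Mfn2 lay above all 6 libraries with it. Mfn1 is on the same chromosome, but 121.8 Mb away. The log2 fold change against WT was 0.03 ± 0.10 in Mfn1-/-, 0.32 ± 0.10 in Mfn2-/- (edgeR adjusted p = 0.0599; called by DESeq2) and 0.31 ± 0.10 in Mfn1&2-/- (edgeR adjusted p = 0.11). Leaving out WT replicate 3 gave -0.069, 0.22 and 0.21, none called. The interaction was -0.04 ± 0.15, with an interval of -0.33 to 0.25.

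Among the core promoter factors, Tbpl2 (chromosome 2, 24071721 to 24096595) stood at 17.7, 16.4 and 15.1 CPM in Mfn1-/-, 14.5, 23.0 and 19.7 CPM in Mfn2-/- and 18.6, 18.0 and 33.9 CPM in Mfn1&2-/-, against 10.8, 18.6 and 18.4 CPM in WT. The double-knockout libraries all lay above those of Mfn1-/-, 1 of them far above, and overlapped the other groups. The log2 fold change against WT was 0.04 ± 0.28 in Mfn1-/-, 0.26 ± 0.28 in Mfn2-/- and 0.56 ± 0.27 in Mfn1&2-/- (edgeR adjusted p = 0.290), and the last was 0.20 without Mfn1&2-/- replicate 3. Without WT replicate 3 the differences of Tbpl2 from WT were 0.16, 0.37 and 0.68. Taf4b (chromosome 18, 14783245 to 14900359) was measured at 70.3, 67.3 and 49.4 CPM in Mfn1-/-, 46.7, 59.8 and 50.9 CPM in Mfn2-/- and 41.5, 40.2 and 42.7 CPM in Mfn1&2-/-, against 59.4, 46.4 and 43.3 CPM in WT. The 3 double-knockout libraries were the lowest of the 12. Against WT the log2 fold change was 0.33 ± 0.16 in Mfn1-/-, 0.08 ± 0.16 in Mfn2-/- and -0.26 ± 0.16 in Mfn1&2-/-, none called, and without WT replicate 3 these were 0.24, -0.013 and -0.35. The interaction was -0.67 ± 0.23 (edgeR adjusted p = 0.11). Taf4b was lower in Mfn1&2-/- than in Mfn1-/- (-0.59 ± 0.16, edgeR adjusted p = 0.0449). A processed pseudogene overlaps Taf4b on the same strand, so reads could have been shared.

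H1foo (chromosome 6, 115944938 to 115950236) was measured at 1119, 1209 and 1228 CPM in Mfn1-/-, 1638, 1461 and 1561 CPM in Mfn2-/- and 1561, 1496 and 1412 CPM in Mfn1&2-/-, against 1284, 1422 and 1222 CPM in WT. The libraries without Mfn2 lay above those with it, except that WT replicate 2 (1422 CPM) passed Mfn1&2-/- replicate 3 (1412 CPM). The log2 fold change against WT was -0.14 ± 0.08 in Mfn1-/-, 0.25 ± 0.08 in Mfn2-/- (edgeR adjusted p = 0.0663; called by DESeq2) and 0.19 ± 0.08 in Mfn1&2-/- (edgeR adjusted p = 0.237). Without WT replicate 3 these were -0.19, 0.20 and 0.14, none called. Between the knockouts, H1foo was higher in Mfn1&2-/- than in Mfn1-/- (0.33 ± 0.08, edgeR adjusted p = 0.0301) and lower in Mfn1-/- than in Mfn2-/- (-0.39 ± 0.08, edgeR adjusted p = 0.00625).

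Against WT, no member passed the threshold in any knockout by edgeR's quasi-likelihood test at a Benjamini-Hochberg adjusted p below 0.05. In Mfn1-/- 0 of 6 members were called, against 0.228% of all genes, with 0 at an unadjusted p below 0.05 (12.8% of all genes) and 0 by DESeq2. The libraries of Mfn1-/- and WT overlapped for each member, while 18.1% of all genes did not overlap. In Mfn2-/- 0 of 6 were called, against 11.4% of all genes (4.52% higher and 6.87% lower), with 3 (Lhx8, H1foo and Nobox) at an unadjusted p below 0.05 (26% of all genes) and 2 by DESeq2. The libraries of Mfn2-/- and WT did not overlap for 2 members, against 32% of all genes. In Mfn1&2-/- 0 of 6 were called, against 4.21% of all genes, with 2 (Lhx8 and H1foo) at an unadjusted p below 0.05 (18.6% of all genes) and 0 by DESeq2. The libraries of Mfn1&2-/- and WT did not overlap for 2 members, Lhx8 above and Taf4b below, against 22.1% of all genes. The median log2 fold change of the 6 members was 0.037 in Mfn1-/-, 0.28 in Mfn2-/- and 0.065 in Mfn1&2-/-, beside -0.0095, 0.013 and 0.0028 for all genes. These comparisons share the WT libraries.

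**Figure D2:**
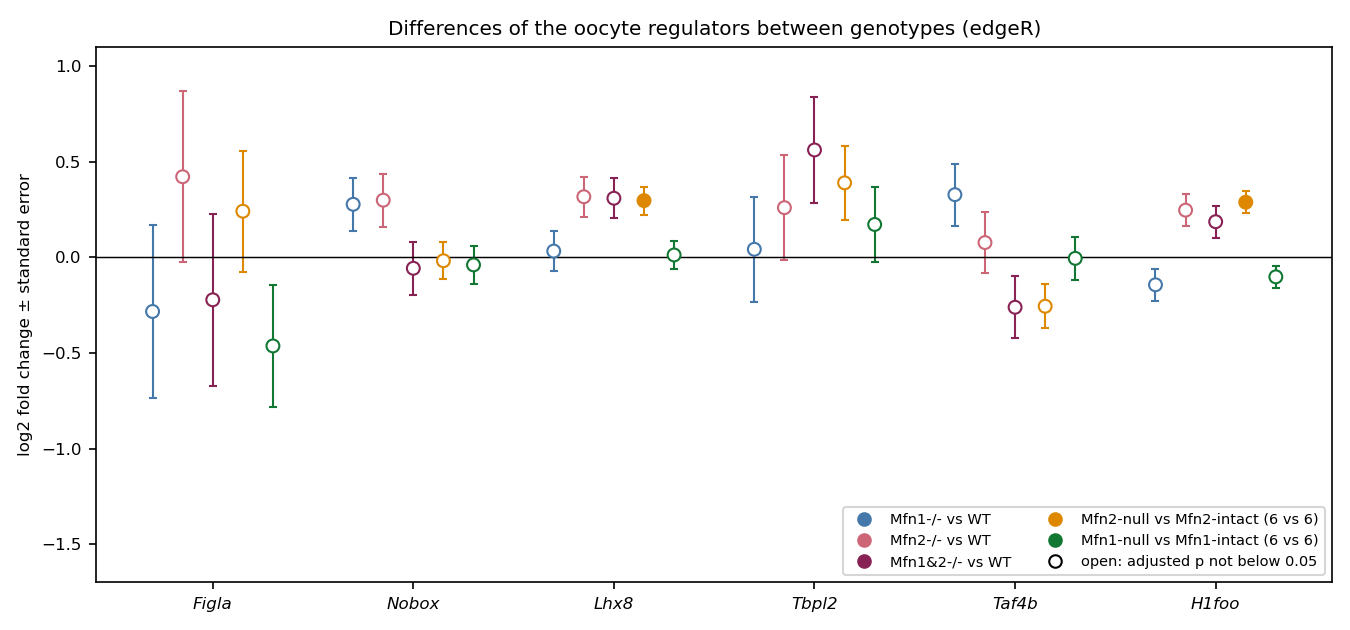
log2 fold change (y axis) of the 6 genes in 5 comparisons; bars are approximate standard errors and filled points have an edgeR adjusted p below 0.05. The filled points are Lhx8 (0.30 ± 0.07) and H1foo (0.29 ± 0.06) in the comparison of 6 libraries without Mfn2 with 6 libraries with it.

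Between the knockouts, 2 of 6 members were called in Mfn1&2-/- against Mfn1-/- (H1foo higher, Taf4b lower), against 5.36% of all genes, 2.76% higher and 2.6% lower. The libraries did not overlap for 5 of the 6 (all but Figla), against 26% of all genes. Neither call held with the replicate block, with only the libraries of these groups in the fit, or with several single libraries left out. In Mfn1&2-/- against Mfn2-/- 0 of 6 were called, against 10.2% of all genes, with 1 (Nobox) at an unadjusted p below 0.05 (25.7% of all genes) and 0 by DESeq2. Nobox and Taf4b did not overlap, both below, and 31.5% of all genes did not overlap in either direction. In Mfn1-/- against Mfn2-/- 1 of 6 was called (H1foo lower), against 13.3% of all genes and 6.46% lower, and it was called again in each fit with a library left out. Lhx8 and H1foo did not overlap, both below, and 33.9% of all genes did not overlap in either direction. For the interaction 0 of 6 were called, against 4.13% of all genes, with 2 (Nobox and Taf4b) at an unadjusted p below 0.05 (21.1% of all genes) and 1 (Nobox) by DESeq2.

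The loss of each mitofusin was also averaged over the presence of the other, which sets 6 libraries against 6. With Mfn2 lost, 2 of 6 members were called, both higher, against 12.4% of all genes in either direction and 6.2% higher. Lhx8 stood at 214 to 245 CPM (median 239) in Mfn2-null libraries and 159.5 to 203 CPM (median 194) in Mfn2-intact libraries, a log2 fold change of 0.30 ± 0.07 (edgeR adjusted p = 0.0151). The 12 libraries did not overlap, which held for 2% of all genes in this direction. H1foo stood at 1412 to 1638 CPM (median 1529) in Mfn2-null and 1119 to 1422 CPM (median 1225) in Mfn2-intact libraries, a log2 fold change of 0.29 ± 0.06 (edgeR adjusted p = 0.00482). Without WT replicate 3 the log2 fold changes were 0.25 for Lhx8 (edgeR adjusted p = 0.0306) and 0.26 for H1foo (edgeR adjusted p = 0.0135). The other members were at 0.24 ± 0.32 (Figla), -0.02 ± 0.10 (Nobox), 0.39 ± 0.19 (Tbpl2) and -0.26 ± 0.11 (Taf4b), none called. With Mfn1 lost, 0 of 6 members were called, against 4.4% of all genes, with 0 at an unadjusted p below 0.05 (21.1% of all genes) and 0 by DESeq2. The interval for Lhx8 with loss of Mfn1 was -0.13 to 0.16, and for H1foo -0.22 to 0.013.

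Partners of the bHLH and LIM homeobox factors were taken from lists of known interactors. Of 8 bHLH partners and inhibitors 6 were measured, and with Mfn2 lost 1 was called, against 12.4% of all genes. Sohlh2, which pairs with SOHLH1, was lower with Mfn2 lost, at 2.33 to 6.56 CPM (mean 5.04 ± 1.46) in Mfn2-null and 7.91 to 12.9 CPM (mean 10.3 ± 1.75) in Mfn2-intact libraries (log2 fold change -1.04 ± 0.24, edgeR adjusted p = 0.00953). The 6 Mfn2-null libraries all lay below the 6 others, a pattern for which the share of all genes is not given here. The E proteins Tcf3, Tcf4 and Tcf12, which dimerise with tissue-specific bHLH factors, were not called in any comparison. Tcf4 nevertheless stood at -1.26 ± 0.46 in Mfn2-/- (edgeR adjusted p = 0.0891) and -1.30 ± 0.46 in Mfn1&2-/- (edgeR adjusted p = 0.129) against WT. Tcf3 and Tcf12 stood at -0.17 ± 0.13 and 0.14 ± 0.16 in Mfn2-/- against WT. Of 11 LIM-domain partners 9 were measured. The cofactor Ldb1, which bridges LIM homeodomain proteins, stood at -0.14 ± 0.07 with Mfn2 lost, not called. With Mfn1 lost 1 of the 9 was called, against 4.4% of all genes: Lmo4, a LIM-only protein that competes for LDB1, was higher (1.38 ± 0.38, edgeR adjusted p = 0.0494), a call lost in 12 of 18 alternative fits, that without WT replicate 3 among them.

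A list of TFIID subunits, relatives of such subunits (Taf5l and Taf6l among them) and TBP family members was set beside Tbpl2 and Taf4b. Of its 21 genes, 19 were measured. With Mfn2 lost 1 was called higher and 0 lower by edgeR, against 6.2% of all genes higher and 12.4% in either direction. The count did not stand above the share of all genes. The median log2 fold change was 0.0069, beside 0.0017 for all genes. The called gene, Taf9b, which encodes a close relative of the histone-fold subunit TAF9, stood at 133 to 159 CPM (median 141) in Mfn2-null and 96.1 to 131 CPM (median 116) in Mfn2-intact libraries (0.32 ± 0.08, edgeR adjusted p = 0.0143). In Mfn2-/- against WT, Taf9b rose (0.42 ± 0.11, edgeR adjusted p = 0.0225) and Taf3 fell (-0.46 ± 0.13, edgeR adjusted p = 0.0330), which are 2 of 19 called against 11.4% of all genes. Taf3 was not called without WT replicate 3. Tbp, the general TATA-binding protein, stood at 0.37 ± 0.12 in Mfn1-/- against WT, not called.

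**Figure D3:**
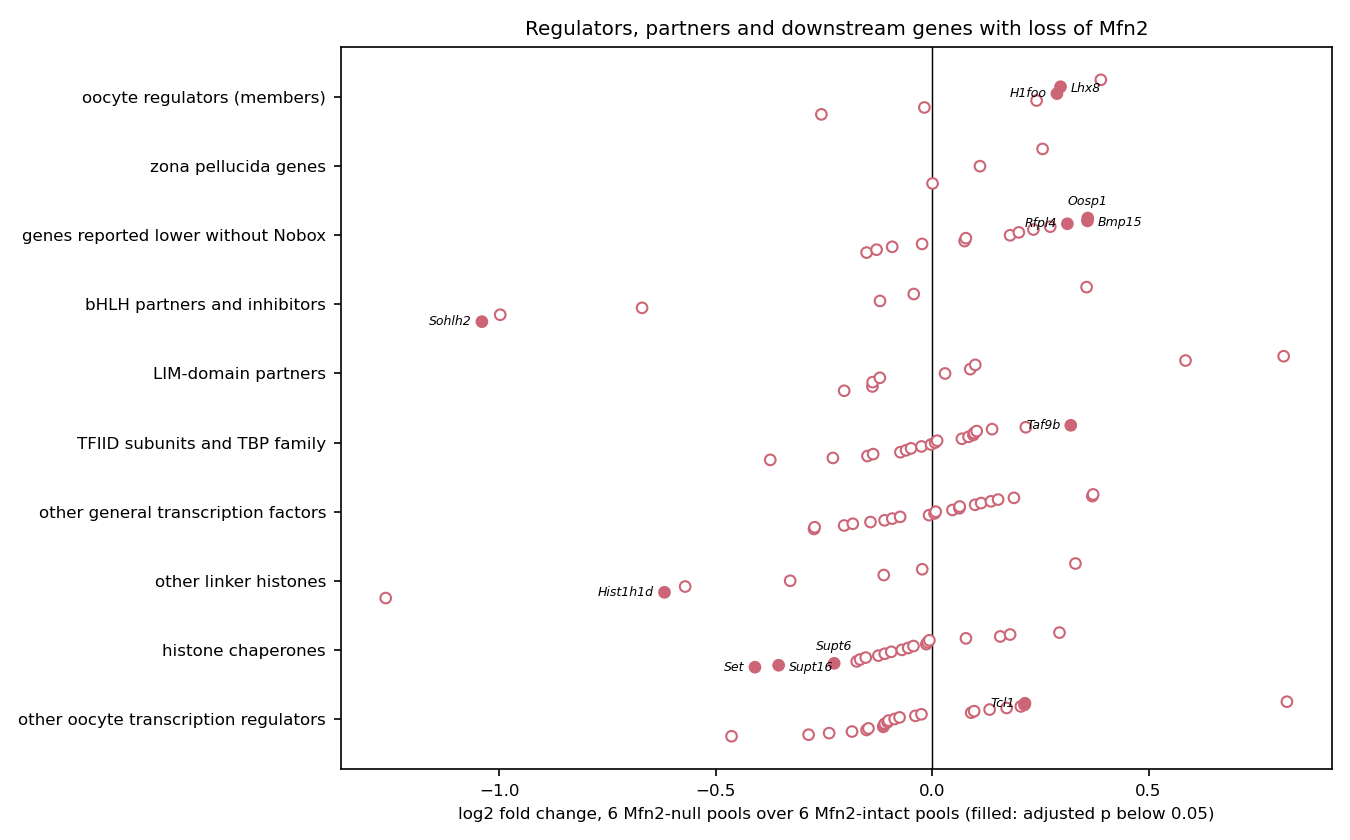
log2 fold change of 6 Mfn2-null over 6 Mfn2-intact libraries (x axis) for each measured gene of each list (rows); filled points have an edgeR adjusted p below 0.05 and carry the gene's name. Lhx8 and H1foo, Bmp15, Oosp1 and Rfpl4 of the genes reported lower without Nobox, Taf9b and Tcl1 lie above 0, and Sohlh2, Hist1h1d, Set, Supt16 and Supt6 below it. For Hist1h1d, Set and Supt16 the interaction was called, and Mfn2-/- against WT stood at -1.22, -0.92 and -0.82, all called. Against WT, Mfn1&2-/- and Mfn1-/- stood at 0.09 and 0.11 for Hist1h1d, -0.27 and -0.36 for Set, and -0.15 and -0.26 for Supt16. None of the latter was called.

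Genes that are reported to be lower in ovaries without Nobox were listed, and 13 of 14 were measured. Mice without Nobox lose their oocytes early, so the list need not hold only genes that NOBOX activates. In Mfn2-/- against WT, 5 were higher and 0 lower by edgeR, against 4.52% of all genes higher. These were Bmp15, a growth factor of the oocyte (0.50 ± 0.08), Oosp1, a secreted oocyte protein (0.54 ± 0.10), Padi6, a protein of the cytoplasmic lattices (0.43 ± 0.11), Mos, the kinase that holds meiotic arrest in eggs (0.58 ± 0.15), and Rfpl4 (0.32 ± 0.08). The list had a median of 0.085, beside 0.013 for all genes, and Padi6, Mos and Rfpl4 were not called without WT replicate 3. Of the 13, 8 had a positive and 5 a negative log2 fold change. Among the 5 were Pou5f1 (-0.32 ± 0.10) and Dnmt1 (-0.19 ± 0.08), neither called. Nobox itself was not called in that comparison (0.30 ± 0.14, edgeR adjusted p = 0.182). Against WT, 0 of the 13 were called in Mfn1-/- and 0 in Mfn1&2-/-, where 0.228% and 4.21% of all genes were. In Mfn1&2-/- against WT, Bmp15 stood at 0.23, Oosp1 at 0.33, Padi6 at -0.013, Mos at 0.10 and Rfpl4 at 0.21.

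Averaged over Mfn1, 3 of the 13 were higher with Mfn2 lost and 0 were lower, against 6.2% of all genes higher, with a median of 0.18, beside 0.0017 for all genes. Bmp15 stood at 1431 to 1915 CPM (median 1677) in Mfn2-null and 1223 to 1343 CPM (median 1319) in Mfn2-intact libraries (0.36 ± 0.06, edgeR adjusted p = 0.000615), with no overlap. Rfpl4 (0.31 ± 0.06) and Oosp1 (0.36 ± 0.07) were the others. Of the 13, 9 had a positive and 4 a negative log2 fold change. Between the knockouts, Bmp15, Padi6 and Mos were lower and Pou5f1 and Npm2 higher in Mfn1&2-/- than in Mfn2-/-, 5 of 13 called against 10.2% of all genes. Of 9 list genes with a promoter entry, 2 held a NOBOX element and 9 an E-box.

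The other linker histones were set beside H1foo, and 7 of 10 were measured. In Mfn2-/- against WT, where H1foo stood at 0.25 ± 0.08, 2 of the 7 were lower and 0 higher by edgeR, against 6.87% of all genes lower. The median of the 7 was -0.90, beside 0.013 for all genes. Of the 7, 5 had a negative and 2 a positive log2 fold change. The 2 were H1fx (0.46 ± 0.21) and H1f0 (0.03 ± 0.16), neither called. Hist1h1d was at 11.8, 8.97 and 14.1 CPM in Mfn2-/- and 26.3, 23.1 and 31.7 CPM in WT (-1.22 ± 0.22, edgeR adjusted p = 0.00305). Hist1h1e was at 2.20, 4.48 and 5.22 CPM in Mfn2-/- and 9.90, 7.93 and 16.5 CPM in WT (-1.53 ± 0.36, edgeR adjusted p = 0.0128), and it was not called without WT replicate 3. For both genes the Mfn2-/- libraries were the lowest of the 12.

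In Mfn1&2-/-, Hist1h1d was at 30.3, 26.6 and 29.4 CPM and Hist1h1e at 21.0, 25.8 and 18.4 CPM, the first within the WT range and the second above it. The interaction was positive and called for Hist1h1d (1.20 ± 0.31, edgeR adjusted p = 0.0444), Hist1h1e (1.91 ± 0.49, edgeR adjusted p = 0.0416) and Hist1h1a (0.91 ± 0.21, edgeR adjusted p = 0.0318), against 0.08 ± 0.12 for H1foo, not called. These are 3 of 7 called, against 4.13% of all genes, and Hist1h1d and Hist1h1e were not called without WT replicate 3. The H1 genes of the histone cluster are related in sequence, and how the counting treated reads that match several genes is not stated, so the counts are uncertain if reads were shared.

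**Figure D4:**
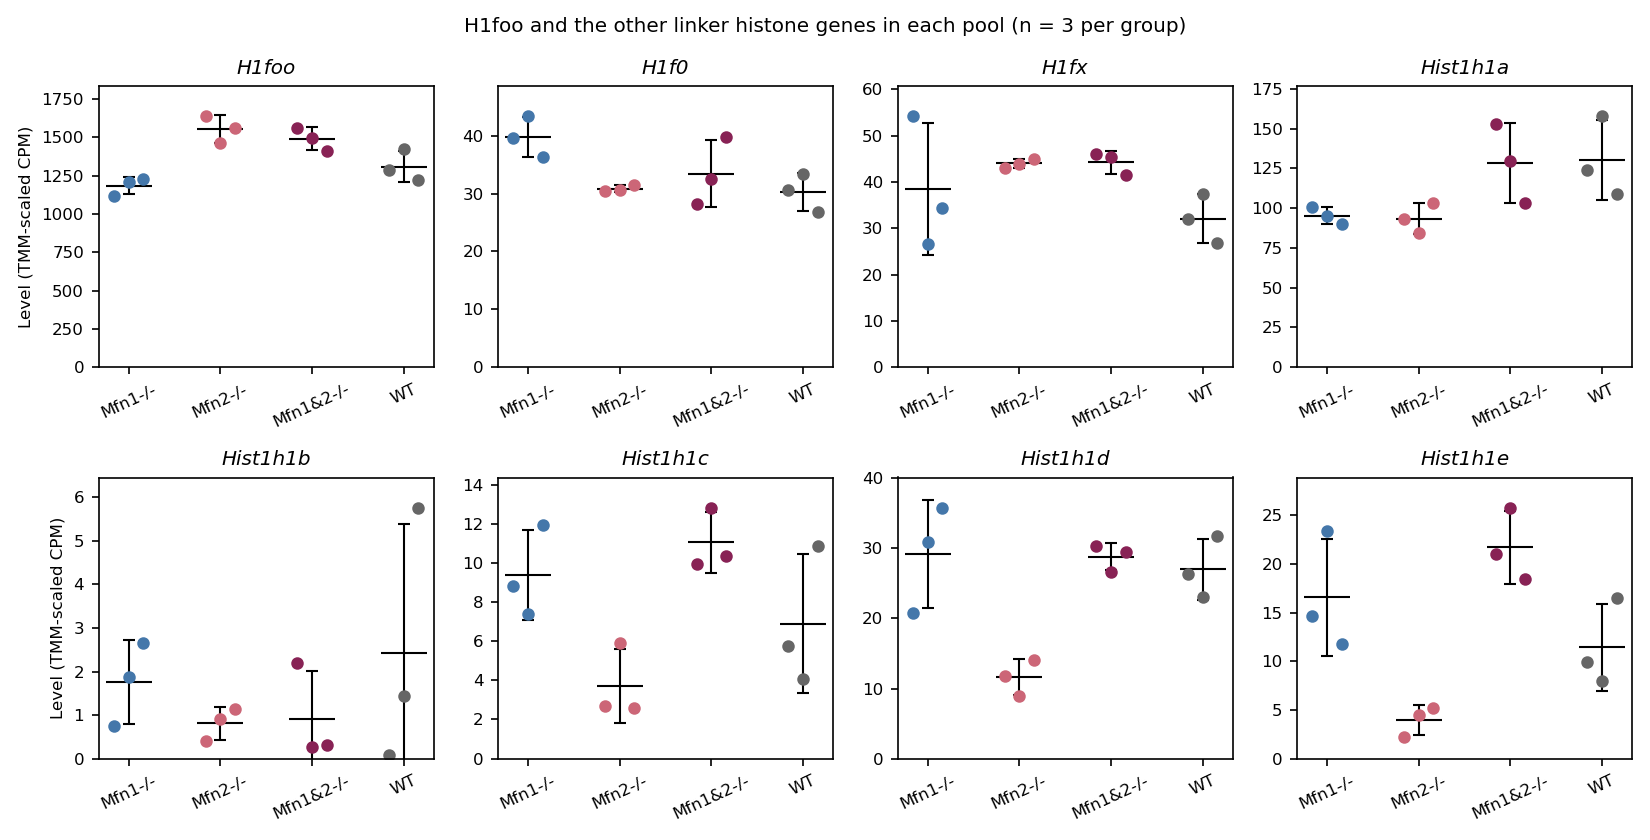
Level of H1foo and 7 other linker histone genes (y axes, CPM with TMM scaling, from 0, scaled per gene) in each library of Mfn1-/-, Mfn2-/-, Mfn1&2-/- and WT; long ticks are means and bars SD, clipped at 0. Hist1h1d and Hist1h1e were lowest in Mfn2-/-, at 8.97 to 14.1 and 2.20 to 5.22 CPM, where H1foo was at 1461 to 1638 CPM.

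Histone chaperones, which load and remove histones, were all measured (19 of 19). In Mfn2-/- against WT 4 were lower and 0 higher by edgeR, against 6.87% of all genes lower, with a median of -0.18, beside 0.013 for all genes. They were Supt16, the large subunit of the FACT complex (-0.82 ± 0.13), Set (-0.92 ± 0.16), Supt6 (-0.44 ± 0.09) and Nap1l1 (-0.50 ± 0.14). Ssrp1, which encodes the other FACT subunit, stood at -0.18 ± 0.11 and was not called. Of the 19, 13 had a negative and 6 a positive log2 fold change, among the latter Asf1a (0.41 ± 0.15, not called). Supt16 was at 410.5, 356 and 401 CPM in Mfn2-/-, against 621, 599 and 838 CPM in WT, and at 597, 633 and 625 CPM in Mfn1&2-/-. The groups Mfn2-/- and WT did not overlap for Supt16, and its call held without WT replicate 3. Nap1l1 was not called without that library. In Mfn1&2-/- against WT, 0 of the 19 chaperones were called, against 4.21% of all genes.

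Across the 12 libraries, the members did not move as a single group. On log2(CPM + 1) values, Nobox and Taf4b had a Pearson r of 0.74, Lhx8 and H1foo 0.73, and Taf4b and H1foo -0.58, while Figla stayed between -0.01 and 0.27 with every other member. Among 8794 genes with a mean of at least 5 CPM, the closest to Lhx8 were Folr4 (r = 0.95), Arl2 (0.92) and Mad2l2 (0.91), and the closest to H1foo were Pabpc1l (0.94), Mon2 (0.93) and Csda (0.93). The closest to Nobox were Ndufaf3 (0.92), Adcy1 (0.92) and Med27 (0.92), but none of the 3 stayed among its closest 3 when CPM was scaled by library size only. Traf3ip1 (0.93), Iqgap1 and Sgms1 were closest to Taf4b, Plxnd1 (0.87), Mrpl28 and Epb4.2 to Tbpl2, and Hspd1 (0.90), Mocos and Mapk3 to Figla. By rank, Mrpl28 and Epb4.2 followed Tbpl2 less closely, at a Spearman rho of 0.51 and 0.53, against 0.85 for Plxnd1. Tbpl2 was highest in Mfn1&2-/- replicate 3, at 33.9 CPM, and the correlations were not recomputed without that library. All these correlations describe 12 libraries in 4 groups, which share group differences and depth.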

How the data were processed

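Total RNA was extracted with a PicoPure kit, depleted of ribosomal RNA and made into libraries with a SMARTer stranded kit, per the labels' protocols, and read as 100 bp pairs. Per the submitters' processing notes, STAR 2.7.0a, FastQC 0.11.7 and edgeR were used with the mm10 genome. The authors deposited raw counts per gene, and a second table of signal (CPM scaled by TMM factors), which equalled TMM-scaled CPM computed from the counts within a relative 5.07e-15. The annotation and the counter's strand setting were not given in the sources used here. The genotype label of 1 pool is misspelled, and its description placed it in Mfn2-/-.

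Counts were fitted with edgeR 4.0.16 (limma 3.58.1, R 4.3.3): TMM scaling, filterByExpr (all 11385 genes kept), 1 mean per group, 12 libraries, 8 residual degrees of freedom, quasi-likelihood F test and Benjamini-Hochberg adjustment over all genes, with calls at an adjusted p below 0.05. The fit was tested on simulated data. Standard errors are the absolute log2 fold change over the square root of F, and intervals are approximate 95% ones. Members and lists were chosen with earlier results of these data known. Named in each comparison were the members, Mfn1, Mfn2 and, per list, up to 6 called genes, or 2 uncalled ones, with the smallest p; other list genes named in the text were chosen after their values were seen. The alternatives were RLE scaling, library size only, DESeq2 1.42.0, no filter, at least 5 CPM in 3 libraries, a replicate block, only the groups compared, and each library left out in turn. Promoters are from RefSeq, and lengths and positions from GENCODE vM21, which gave a length for 94.1% of genes.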

Additional observations from a re-analysis of the deposited data

Results flagged for a closer look

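For 7 of 138 measured genes of the lists set beside the members, marker lists included (5.07%), the effect of losing Mfn1 differed with and without Mfn2 by edgeR's interaction term, against 4.13% of all genes. No member was among them. Hist1h1e differed by 1.91 (edgeR adjusted p = 0.0416), Hist1h1d by 1.20 (edgeR adjusted p = 0.0444) and Hist1h1a by 0.91 (edgeR adjusted p = 0.0318) on the log2 scale; all 3 are linker histones. The chaperones Set, Supt16 and Nap1l1 differed by 1.01 (edgeR adjusted p = 0.0241), 0.93 (edgeR adjusted p = 0.0130) and 0.78 (edgeR adjusted p = 0.0377). Nr6a1, a nuclear receptor of germ cells, differed by -0.58 (edgeR adjusted p = 0.0296), at 315 ± 27.4 CPM in Mfn1-/-, 308 ± 6.81 CPM in Mfn2-/- and 238 ± 21.8 CPM in Mfn1&2-/-, against 272 ± 21.8 CPM in WT. Supt16 kept its call in all 18 alternative fits of this term, while Hist1h1d lost it in 12, Nap1l1 in 11, Hist1h1e in 10, Hist1h1a in 8 and Set in 5. Hist1h1d, Hist1h1e, Set, Nap1l1 and Nr6a1 were not called without WT replicate 3. Granulosa markers stood high in 1 WT library, and their part in these differences was not tested.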

How the results depend on the processing

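The calls of Lhx8 and H1foo with Mfn2 lost, averaged over Mfn1, held in all 18 alternative fits, at 0.25 to 0.32 for Lhx8 and 0.26 to 0.32 for H1foo. For Mfn2-/- against WT, 2 members were called with library size only and 2 with DESeq2. For the interaction, 1 member was called with DESeq2. With only the groups compared, 0 members were called for Mfn1&2-/- against Mfn1-/- and 1 for Mfn1&2-/- against Mfn2-/-. Over all genes, DESeq2 called 224 for Mfn1-/- and 834 for Mfn1&2-/- against WT, 1044 for Mfn1&2-/- against Mfn1-/-, 902 for the interaction and 875 for loss of Mfn1. With only the groups compared, 13 genes were called for Mfn1-/- against WT. The cause was not tested in these cases.

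With the replicate number as a block, 276 genes were called for the interaction (197 higher, 79 lower) and 0 members for Mfn1&2-/- against Mfn1-/-. The 18 same-numbered pairs of libraries had deviations that correlated at -0.167 to 0.196, with 4 above 0.1. Pairs from different groups with different numbers spanned -0.274 to 0.207. The replicate numbers were therefore not taken to pair the pools. The column headers of the counts carry other numbers, some shared by libraries of different groups. Whether those numbers mark pairs was not tested.

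Leaving out 1 library moved the genes called to 3 to 51 for Mfn1-/- against WT (3 without Mfn1-/- replicate 2, 51 without Mfn1-/- replicate 3), 708 to 1429 for Mfn2-/- against WT, 282 to 550 for Mfn1&2-/- against WT, 295 to 689 for Mfn1&2-/- against Mfn1-/-, 570 to 1302 for Mfn1&2-/- against Mfn2-/-, 873 to 1673 for Mfn1-/- against Mfn2-/-, 160 to 464 for the interaction, 1018 to 1386 for loss of Mfn2 and 228 to 592 for loss of Mfn1. Members called were 0 to 1 for Mfn2-/- against WT (1 without WT replicate 2), 0 to 3 for Mfn1&2-/- against Mfn1-/- (3 without WT replicate 3), 0 to 1 for Mfn1&2-/- against Mfn2-/- and 1 to 2 for Mfn1-/- against Mfn2-/- (both without WT replicate 3), 0 to 1 for the interaction (1 without WT replicate 1), 2 for loss of Mfn2, and 0 for the other comparisons.

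No called value changed sign. Uncalled values did, of up to 0.36 in size (Figla in the interaction, -0.36): with library size only, Figla in Mfn1&2-/- against Mfn1-/- (-0.014) and H1foo in the interaction (-0.024). With a library left out they ranged, for Mfn1-/- against WT, -0.17 to 0.17 for Tbpl2, -0.069 to 0.088 for Lhx8 and -0.81 to 0.0056 for Figla. For Mfn1&2-/- against WT, -0.25 to 0.062 for Nobox. For loss of Mfn2, -0.11 to 0.042 for Nobox. For loss of Mfn1, -0.13 to 0.020 for Nobox, -0.050 to 0.069 for Taf4b, -0.039 to 0.040 for Lhx8 and -0.0084 to 0.25 for Tbpl2. For Mfn2-/- against WT, -0.026 to 0.23 for Taf4b. For the interaction, -0.11 to 0.061 for Lhx8, -0.69 to 0.16 for Figla and -0.10 to 0.48 for Tbpl2. For Mfn1&2-/- against Mfn1-/-, -0.23 to 0.58 for Figla. For Mfn1-/- against Mfn2-/-, -0.073 to 0.036 for Nobox. For Mfn1&2-/- against Mfn2-/-, -0.062 to 0.045 for Lhx8 and -0.059 to 0.46 for Tbpl2. Figla had 27 to 144 counts per library and an SD of up to 56.2% of a group's mean, and its intervals were wide. A miss of the threshold does not show that a gene was unchanged. The pools may share animals, and counts over whole genes show neither protein nor isoforms.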

Other observations

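Other regulators of oocyte transcription were listed beside the members, and 23 of 28 were measured. With Mfn1 lost 1 of the 23 was called, against 4.4% of all genes: Yy1, a zinc-finger factor needed for follicle growth, was higher (0.80 ± 0.18, edgeR adjusted p = 0.0232). With Mfn2 lost 1 was called, against 12.4% of all genes: Tcl1, a coactivator of AKT kinases found in early embryos, was higher (0.21 ± 0.06, edgeR adjusted p = 0.0365). In Mfn2-/- against WT 1 was called, against 11.4% of all genes: Sall4 was lower (-0.27 ± 0.08, edgeR adjusted p = 0.0399). Neither Tcl1 nor Sall4 was called without WT replicate 3. In Mfn1&2-/- against Mfn2-/-, 6 of 21 general transcription factors other than TFIID subunits were called, 3 in each direction, against 10.2% of all genes: Mnat1, Gtf2f1 and Gtf2f2 were higher and Ercc2, Btaf1 and Gtf2h2 lower.

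Ddx4, an RNA helicase of germ cells used as an oocyte marker, was lower with Mfn2 lost (-0.51 ± 0.10, edgeR adjusted p = 0.00366), while Bmp15 and Oosp1 were the 2 oocyte markers called higher there. Of the 13 oocyte markers 3 were called, against 12.4% of all genes.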
